A study of Mus musculus with 9 samples.

Results

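The adipocyte and C/EBP genes are 9 genes of fat cells and of their transcriptional program: Pparg, Cebpa, Cebpb and Cebpd, which encode transcription factors, Lpl, Cd36, Fabp4 and Plin2, which handle fatty acids, and Adipoq, which encodes the hormone adiponectin. Every probe set whose platform annotation gives 1 of these symbols and no other was taken, which gave 17 of the 22626 probe sets of the arrays, and 9 of the 12393 genes that at least 1 probe set names alone. The rule itself uses no measured value. Total RNA was profiled on MOE430A Gene Chips, 1 array per preparation and 3 per group. Tumorspheres (TMS) are floating spheres from independent mammary tumors of the MMTV-Neu [N2O2] model, in which a mammary promoter drives the Neu oncogene. No strain is labelled for them. Mammospheres induced to differentiate (diffMMS) had been dissociated, plated on collagen and kept for 7 days in medium with serum. Mammospheres (MMS) are the floating spheres of FVB/N mammary glands, from virgin females 6 to 8 weeks old, in the stem cell medium that tumorspheres also received. Spheres of both kinds were passaged every 7 days and harvested between passages 3 and 5. The diffMMS cultures thus differ from MMS in medium, attachment and time together, and whether they came from the same preparations as the MMS arrays is not stated.

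In a fat cell precursor, Cebpb and Cebpd are switched on first and then activate Cebpa and Pparg, which sustain each other and turn on the genes of fatty acid uptake and storage. Pparg binds DNA as a partner of the retinoid X receptor. The same C/EBP factors serve other programs: in the mammary gland Cebpb is needed for normal ductal and alveolar development, and Cebpb and Cebpd also drive inflammatory and acute phase genes. Lpl, lipoprotein lipase, is secreted and releases fatty acids from circulating lipoproteins, Cd36 takes fatty acids up at the membrane, Fabp4 carries them in the cytosol, and Plin2 coats lipid droplets in many cell types.

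Promoter sequence is shown for the transcription factors that differed between cultures and for Plin2, the gene of lipid handling that was lower in diffMMS, so that the letters searched for can be seen. The sequences are from RefSeq (GRCm38.p6), which gave promoter entries for 6 of the 9 genes, without Cebpd, Fabp4 and Lpl. They run 5′ to 3′ up to the base before a start site, except for Plin2, and capitals mark matches of a C/EBP motif (TTNNGNAA), a nuclear receptor half-site (AGGTCA), a cyclic AMP response half-site (TGACG) or a TATA box (TATAAA) on either strand. The Pparg stretch, chr6:115421816-115422065 on the plus strand, lies inside the span of the gene before the most downstream of its 3 starts. That of Cebpa is chr7:35119043-35119292 and that of Cebpb is chr2:167688665-167688914, both on the plus strand. For Plin2, the 92 bases outside the annotated gene are shown, chr4:86670218-86670309 on the minus strand, which end 158 bases short of the start site used here.
Pparg: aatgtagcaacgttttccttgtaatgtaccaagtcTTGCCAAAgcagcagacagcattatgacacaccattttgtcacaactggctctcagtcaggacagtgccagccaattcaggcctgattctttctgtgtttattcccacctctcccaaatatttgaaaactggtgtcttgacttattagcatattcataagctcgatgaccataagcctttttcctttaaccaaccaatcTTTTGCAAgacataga
Cebpa: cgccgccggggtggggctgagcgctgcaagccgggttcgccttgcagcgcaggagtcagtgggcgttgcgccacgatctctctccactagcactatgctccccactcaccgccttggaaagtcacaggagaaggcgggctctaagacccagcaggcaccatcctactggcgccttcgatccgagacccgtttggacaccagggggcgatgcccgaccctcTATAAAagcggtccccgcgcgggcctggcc
Cebpb: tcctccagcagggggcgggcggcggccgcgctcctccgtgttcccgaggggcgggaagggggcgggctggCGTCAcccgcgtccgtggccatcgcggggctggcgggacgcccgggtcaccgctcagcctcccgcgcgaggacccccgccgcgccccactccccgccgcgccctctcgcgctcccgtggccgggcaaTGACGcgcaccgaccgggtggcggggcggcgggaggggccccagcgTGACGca
Plin2: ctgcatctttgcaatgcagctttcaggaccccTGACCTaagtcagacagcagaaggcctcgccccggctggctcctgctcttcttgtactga
The Pparg stretch held matches of the C/EBP letters at -215 and -16, counted from the start site, and such a match stood in 36.8% of all 32851 promoters of the table over the same 250 bases. The windows before the other 2 starts of Pparg held no C/EBP match and had the nuclear receptor half-site, at -28 and at -9. The Cebpb promoter held the cyclic AMP half-site 3 times, at -180, -53 and -7, letters that occurred in 17.8% of promoters. Cebpa had the TATA letters at -30 (12.4% of promoters). Plin2 had the nuclear receptor half-site at -218 from its start site (14.0%). No window of these genes held the direct repeat AGGTCANAGGTCA, to which a pair of PPAR and retinoid X receptors binds and which contains the half-site, or the E-box CACGTG. The direct repeat stood in 0.0335% of promoters and the E-box in 6.02%. These matches are letters in a window and say nothing of binding in the cultures.

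Lpl changed most of the 9 genes in the comparisons with diffMMS. Plin2 moved the other way, Cebpa, Cebpb and Cebpd were higher in diffMMS than in MMS on at least 1 probe set, and Pparg was lower in TMS than in either other culture. Adipoq and Cd36 gave low signals with no called difference. A probe set was called different at an adjusted p under 0.05 from limma, with Benjamini-Hochberg adjustment over all 22626 probe sets. Of the 17 probe sets, 6 were called between TMS and MMS, where 14.3% of all probe sets were called, 6.50% higher and 7.78% lower. Only 1 of the 6, of Cebpb, was higher in TMS, while the 5 lower ones belonged to Lpl, Fabp4 and Pparg. Between TMS and diffMMS 9 were called, 1 higher and 8 lower, against 23.7% of all probe sets, 12.2% higher and 11.4% lower. Between diffMMS and MMS 7 were called, 6 higher and 1 lower, against 33.1% of all probe sets (16.1% higher and 17.0% lower), so that the count of the members lies close to the background there. The median log2 fold change of the 17 was -0.05, -0.12 and 0.08 in the same order, beside 0.00, -0.02 and 0.03 over all probe sets. Groups did not overlap at 9, 10 and 9 of the 17, and at 33.3%, 37.4% and 51.6% of all probe sets. Several probe sets read 1 gene, so that the 17 are not independent.

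**Figure D1:**
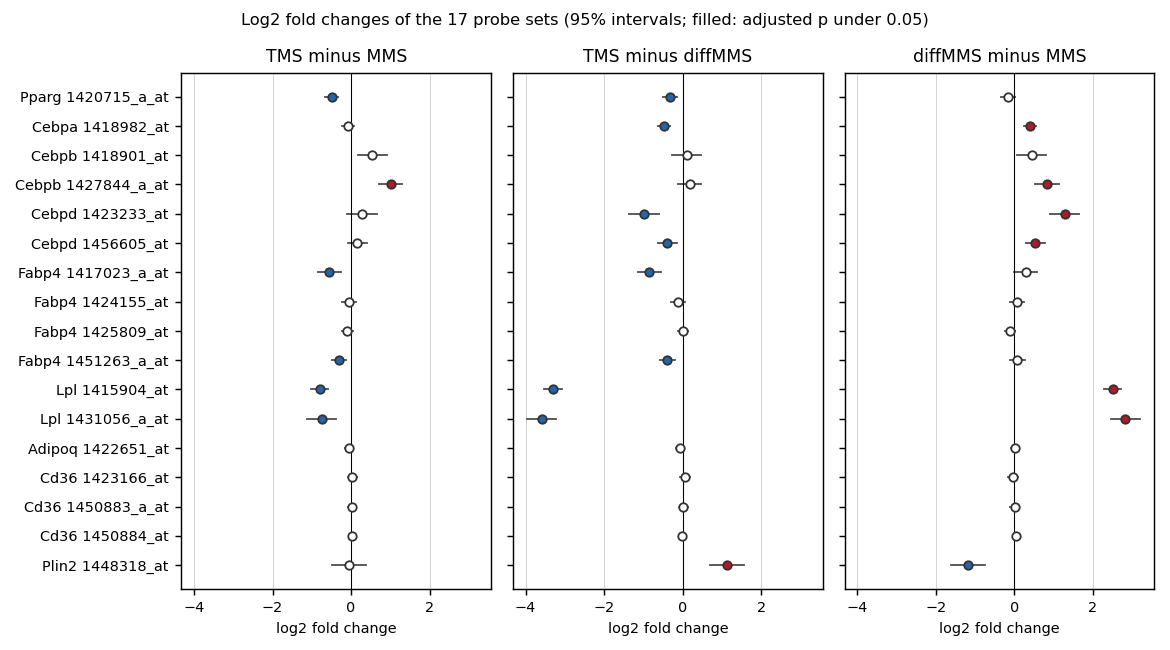
Log2 fold changes (x axis) of the 17 probe sets of the 9 genes (y axis) for TMS minus MMS, TMS minus diffMMS and diffMMS minus MMS, with points for the estimates, lines for 95% intervals from limma and filled points (red for higher, blue for lower) at an adjusted p under 0.05. Lpl reached -3.59 in TMS against diffMMS, and Adipoq and Cd36 stayed within 0.06 of 0 in each comparison.

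The arrays measured mixed RNA, in which fewer cells of a type and less RNA per cell cannot be told apart. The codes of the 3 TMS arrays (1099A to 1101A) lie apart from those of the other 6 (858A to 863A), which are consecutive. The labels name no batch, and a difference that went with the codes could not be told apart from tumor origin. Replicates are separate preparations. The p values weigh a group difference against the spread between replicates, which limma pooled over all groups in the fit and moderated. Most genes that define luminal epithelium were higher in TMS than in the mammosphere cultures. Of 12 such genes, 8 were higher in TMS than in MMS, 9 were higher than in diffMMS, and none was lower than in either. In diffMMS against MMS 2 were higher, Cldn3 (0.57) and Krt19 (0.39), and none was lower. The summed intensity of the 12 was 5056 to 8607 in TMS (8607 in array 1101A), 871 to 1068 in diffMMS and 854 to 952 in MMS. Krt18 averaged 10.20 on the log2 scale in TMS, 5.49 in diffMMS and 5.93 in MMS. The summed intensity of 11 fibroblast and preadipocyte genes was 30319 to 34022 in TMS, 44706 to 47786 in diffMMS and 37138 to 38387 in MMS, but single genes moved both ways. Of these, 1 was higher and 3 lower in TMS against MMS, 4 and 6 in TMS against diffMMS, and 5 and 4 in diffMMS against MMS (Thy1 1.42, Pdgfra 1.04, Cd34 -2.56 and Lum -1.84). The sum of 12 basal epithelial genes was 1342 to 1578 in TMS, 3814 to 5873 in diffMMS and 1188 to 1255 in MMS. Here 1 gene was higher and 1 lower in TMS against MMS, 2 and 6 in TMS against diffMMS, and 6 and 2 in diffMMS against MMS. The last comparison was led by the contractile genes Tagln (3.73) and Acta2 (2.59), with Itga6 (-1.15) and Snai2 (-0.28) lower. The keratins of this list, Krt5 (0.19), Krt14 (-0.01) and Krt17 (0.04), were not called between diffMMS and MMS. Intensities named below are the deposited ones on a linear scale, and log2 values were taken after 8.67 was added and the arrays were quantile normalized.

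Lpl had the largest difference of the 17 probe sets. In the probe set of the highest mean (1415904_at), its intensity was 392.0, 386.1 and 477.7 in the TMS arrays, 4499, 4122 and 4273 in the diffMMS arrays and 668.8, 842.9 and 929.4 in the MMS arrays. The 3 groups did not overlap, with diffMMS highest and TMS lowest. On the log2 scale the means were 8.74 ± 0.09 in TMS, 12.04 ± 0.11 in diffMMS and 9.54 ± 0.20 in MMS (SD, n = 3 each). The log2 fold change of diffMMS over MMS was 2.51 (standard error 0.102, adjusted p = 8.96e-09 from limma), a 5.68-fold difference. For TMS against diffMMS it was -3.31 (adjusted p = 1.81e-09 from limma), which is 9.89-fold lower in TMS. The difference between TMS and MMS was smaller, at -0.80 (95% interval -1.02 to -0.58, adjusted p = 3.89e-04 from limma). All 15 alternative settings kept these 3 calls for this probe set.

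The second Lpl probe set (1431056_a_at) followed the first closely over the 9 arrays (r = 0.994, a description over arrays that share 3 groups). Its intensity was 70.99, 66.4 and 99.33 in TMS, 910.6, 829.3 and 1101 in diffMMS and 103.8, 156.7 and 149.6 in MMS. The log2 fold changes were 2.83 for diffMMS over MMS, -3.59 for TMS against diffMMS and -0.75 for TMS against MMS (adjusted p = 1.99e-07, 2.8e-08 and 0.0118 from limma). The last of these was lost without TMS array 1100A (-0.65, adjusted p = 0.0509 from limma) and without MMS array 859A or 860A (-0.66 and -0.68, adjusted p = 0.0621 and 0.0586).

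Lpl is also made by cells other than adipocytes, and marker lists of several cell types moved beside it. Of 13 measured genes of mature adipocytes, which include Adipoq, 3 were higher in diffMMS than in MMS and none was lower, where 17.9% of all genes were higher, and their summed intensity was 841 to 1007 in diffMMS and 716 to 772 in MMS. Those with the largest differences were Retn, which encodes resistin (0.40), and Lipe, the hormone-sensitive lipase (0.30). In TMS, whose sum was 744 to 876, Thrsp was higher than in MMS (0.20, adjusted p = 0.0486 from limma), and Cidec, a lipid droplet protein, was lower than in diffMMS (-0.17). The sum of 16 macrophage genes was 1276 to 1764 in TMS, 1177 to 1485 in diffMMS and 980 to 1071 in MMS, with 7 genes higher and none lower in TMS against MMS, 1 and none in TMS against diffMMS, and 6 and 1 in diffMMS against MMS. That of 14 endothelial genes was 992 to 1210 in TMS, 1399 to 1475 in diffMMS and 1157 to 1222 in MMS. None of the 14 was higher in TMS, where 4 were lower than in MMS and 6 lower than in diffMMS. In diffMMS against MMS 2 were higher, Egfl7 (0.86) and Flt1 (0.51), and 1 was lower, Emcn (-0.25), with a list median of -0.05. The median gene mean, on the log2 scale, was 5.99 for the adipocyte, 6.11 for the macrophage and 6.10 for the endothelial list. For 28 measured genes of other tissues, which give an idea of signal without expression, it was 6.02. The summed intensity of those 28 was also higher in every diffMMS array than in every MMS array. Their median log2 fold change there was 0.10, beside 0.13 in the adipocyte list. The adipocyte sum alone thus does not show expression. The part of the cell type lists in the Lpl result was not tested.

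**Figure D2:**
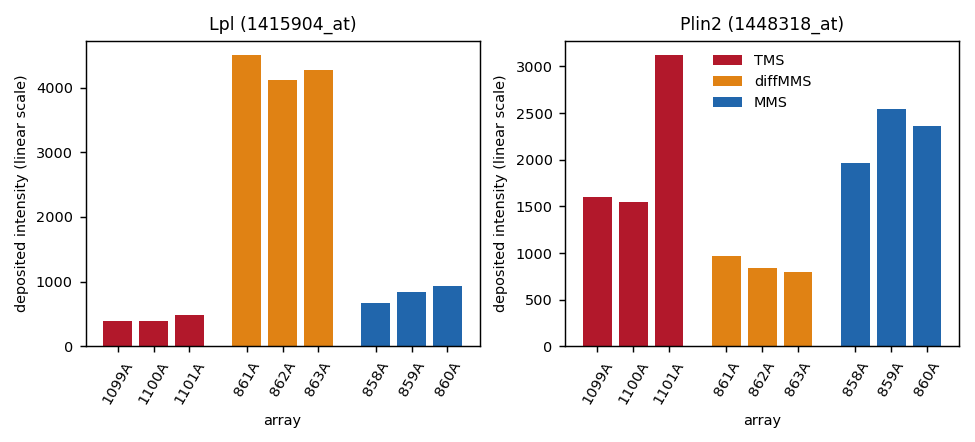
Deposited intensity (y axis, linear scale from 0) of Lpl and of Plin2 in each of the 9 arrays (x axis), with 1 bar per array and colors for TMS, diffMMS and MMS. Lpl stood at 4122 to 4499 in diffMMS, above every other array, while Plin2 stood at 801.2 to 964.6 there, below every other array.

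Plin2 was lowest in diffMMS. Its only probe set had intensities of 1599, 1545 and 3119 in TMS, 964.6, 843.4 and 801.2 in diffMMS and 1961, 2548 and 2360 in MMS. The diffMMS arrays lay below all others, and TMS and MMS overlapped because array 1101A had the highest value of the 9. The mean log2 value was 11.01 ± 0.51 in TMS, 9.88 ± 0.20 in diffMMS and 11.06 ± 0.17 in MMS (SD, n = 3 each). Plin2 thus fell by 1.18 on the log2 scale in diffMMS against MMS (standard error 0.201, adjusted p = 9.11e-04 from limma). For TMS against diffMMS the log2 fold change was 1.13 (adjusted p = 0.00156), and without array 1101A it was 0.84 (adjusted p = 3.73e-04 from limma). Between TMS and MMS the value was -0.05, with a 95% interval of -0.49 to 0.39 (adjusted p = 0.913 from limma). In array 1101A the summed luminal markers were also highest, and their part in its Plin2 value was not tested.

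Cebpd was highest in diffMMS on both of its probe sets. The one of the higher mean (1423233_at) had intensities of 101.9, 129.5 and 124.7 in TMS, 163.1, 253.0 and 306.0 in diffMMS and 90.54, 92.45 and 94.18 in MMS. The groups did not overlap, and the diffMMS arrays were spread widely, the SD on the log2 scale being 0.17 in TMS, 0.45 in diffMMS and 0.03 in MMS. The log2 fold change was 1.28 for diffMMS over MMS (standard error 0.175, adjusted p = 1.76e-04 from limma) and -0.99 for TMS against diffMMS (adjusted p = 0.00143). Leaving out an array gave 1.09 to 1.53 for the first of these. Between TMS and MMS it was 0.28, with a 95% interval of -0.10 to 0.67 (adjusted p = 0.332 from limma). The other probe set (1456605_at) was 63.44 to 84.39 in TMS, 86.75 to 118.1 in diffMMS and 61.33 to 63.6 in MMS. Its log2 fold changes were 0.54 for diffMMS over MMS and -0.39 for TMS against diffMMS (adjusted p = 0.00261 and 0.0229 from limma). The second call was lost when 1100A, 1101A or 861A was left out (adjusted p = 0.0599, 0.0744 and 0.0721), and with only the groups compared in the fit (adjusted p = 0.0600). The diffMMS array with the lowest value on the first probe set, 861A, had the highest on the second, and the probe sets correlated at r = 0.656 over the 9 arrays.

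Cebpb separated MMS from both other cultures on 1 of its probe sets. That probe set (1427844_a_at) had intensities of 291.4, 290.4 and 476.8 in TMS, 282.3, 297.6 and 282.9 in diffMMS and 175.8, 151.6 and 175.3 in MMS. The MMS arrays lay below all others, and TMS and diffMMS overlapped. The log2 fold change was 1.01 for TMS over MMS (95% interval 0.71 to 1.30, adjusted p = 5.1e-04 from limma), a 2.01-fold difference, and 0.82 without array 1101A. For diffMMS over MMS it was 0.83 (adjusted p = 5.85e-04), a 1.78-fold difference. For TMS against diffMMS it was 0.18, with an interval of -0.12 to 0.47. The probe set of the higher mean (1418901_at) had 402.2, 488.6 and 807.8 in TMS, 472.0, 456.9 and 508.4 in diffMMS and 333.9, 449.6 and 417.6 in MMS. Its differences had the same signs but did not pass, at 0.54 for TMS over MMS and 0.44 for diffMMS over MMS (adjusted p = 0.0544 and 0.0659 from limma). Without array 1099A the first of them was 0.72 and passed (adjusted p = 0.013 from limma), and without 1101A it was 0.30 (adjusted p = 0.0772). Array 1101A was the highest of the 9 on both probe sets, as it was for Plin2.

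Cebpa differed less. Its single probe set had intensities of 252.5, 273.8 and 297.5 in TMS, 335.5, 381.5 and 377.1 in diffMMS and 310.9, 310.9 and 290.6 in MMS. The normalized log2 means were 8.14 ± 0.06 in TMS, 8.62 ± 0.05 in diffMMS and 8.22 ± 0.06 in MMS (SD, n = 3 each), with diffMMS above every other array. The log2 fold changes were 0.39 for diffMMS over MMS and -0.48 for TMS against diffMMS (standard error 0.0708, adjusted p = 0.00126 and 3.7e-04 from limma). With each array centred on its median in place of quantile normalization, the first was 0.21 and did not pass (adjusted p = 0.104). TMS and MMS overlapped, at -0.09 with an interval of -0.24 to 0.07.

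Pparg, read by 1 probe set, was lowest in TMS. Its intensity was 54.38, 53.57 and 50.49 in TMS, 76.42, 65.32 and 65.32 in diffMMS and 74.65, 68.72 and 81.93 in MMS, all below the array medians of 84.0 to 88.6. The TMS arrays lay under all others, and diffMMS and MMS overlapped. The log2 fold changes were -0.49 for TMS against MMS, or 1.41-fold lower, and -0.33 for TMS against diffMMS (standard error 0.0786, adjusted p = 0.00163 and 0.00991 from limma). For diffMMS against MMS the value was -0.17, with an interval of -0.34 to 0.01 (adjusted p = 0.128). Among 28 measured genes that belong to other tissues (pancreas, pituitary and testis among them), which give an idea of signal without expression, 12 had a higher mean than this probe set. Calls of similar size occurred among them, such as Gcg, the glucagon gene (-0.47 for TMS against MMS), and Pomc, the precursor of pituitary hormones (-0.42 for TMS against diffMMS), although Pomc had a brighter probe set. Of these 28 genes, 0 were higher and 1 was lower in TMS against MMS, 0 and 2 in TMS against diffMMS, and 4 and 1 in diffMMS against MMS. Probe sets differ in how strongly they bind, and no detection calls were used here, so that whether Pparg was expressed cannot be said from its level.

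Fabp4 was read by 4 dim probe sets that did not move together (r = -0.179 to 0.877 between them). On 1417023_a_at the intensity was 22.47, 21.87 and 17.5 in TMS, 36.09, 49.42 and 51.52 in diffMMS and 26.85, 32.38 and 39.93 in MMS, with TMS below all other arrays. Its log2 fold changes were -0.55 for TMS against MMS and -0.85 for TMS against diffMMS (adjusted p = 0.0172 and 6.52e-04 from limma). For diffMMS over MMS it had 0.30 (adjusted p = 0.111), a difference that 4 of 14 alternative settings called. The dimmest, 1451263_a_at, was also called lower in TMS, at -0.30 and -0.39 (adjusted p = 0.0349 and 0.00635 from limma). Neither 1424155_at nor 1425809_at was called in any comparison of the fit reported here, with log2 fold changes of -0.12 to 0.06. In TMS against diffMMS, 1 of 14 alternative settings called 1424155_at lower (adjusted p = 0.0276 from limma). The calls against MMS were not stable: that of 1417023_a_at was lost when 859A or 860A was left out (adjusted p = 0.0589 and 0.0802), and that of 1451263_a_at without each of 1100A, 1101A, 858A, 859A and 860A (adjusted p of 0.0651 to 0.13). Of the 28 genes of other tissues, 19 to 25 had a higher mean than the 4 probe sets.

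Adipoq and Cd36 gave no called difference in the fit reported here. Adipoq was between 15.6 and 17.93 in TMS, 18.19 and 19.15 in diffMMS and 16.49 and 17.98 in MMS. Its 95% intervals lay within -0.16 and 0.10 on the log2 scale in all comparisons. The 3 probe sets of Cd36 ranged from 7.408 to 14.9 in TMS, from 7.474 to 14.48 in diffMMS and from 6.778 to 12.48 in MMS, and their intervals lay within -0.15 and 0.18. With array weights in the fit, 1423166_at of Cd36 was called in TMS against diffMMS (0.15, adjusted p = 0.0416 from limma). Between 23 and 28 of the 28 genes of other tissues had a higher mean than these 4 probe sets. At such signals a difference in these transcripts may not be detectable, and the result does not show that they were absent.

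**Figure D3:**
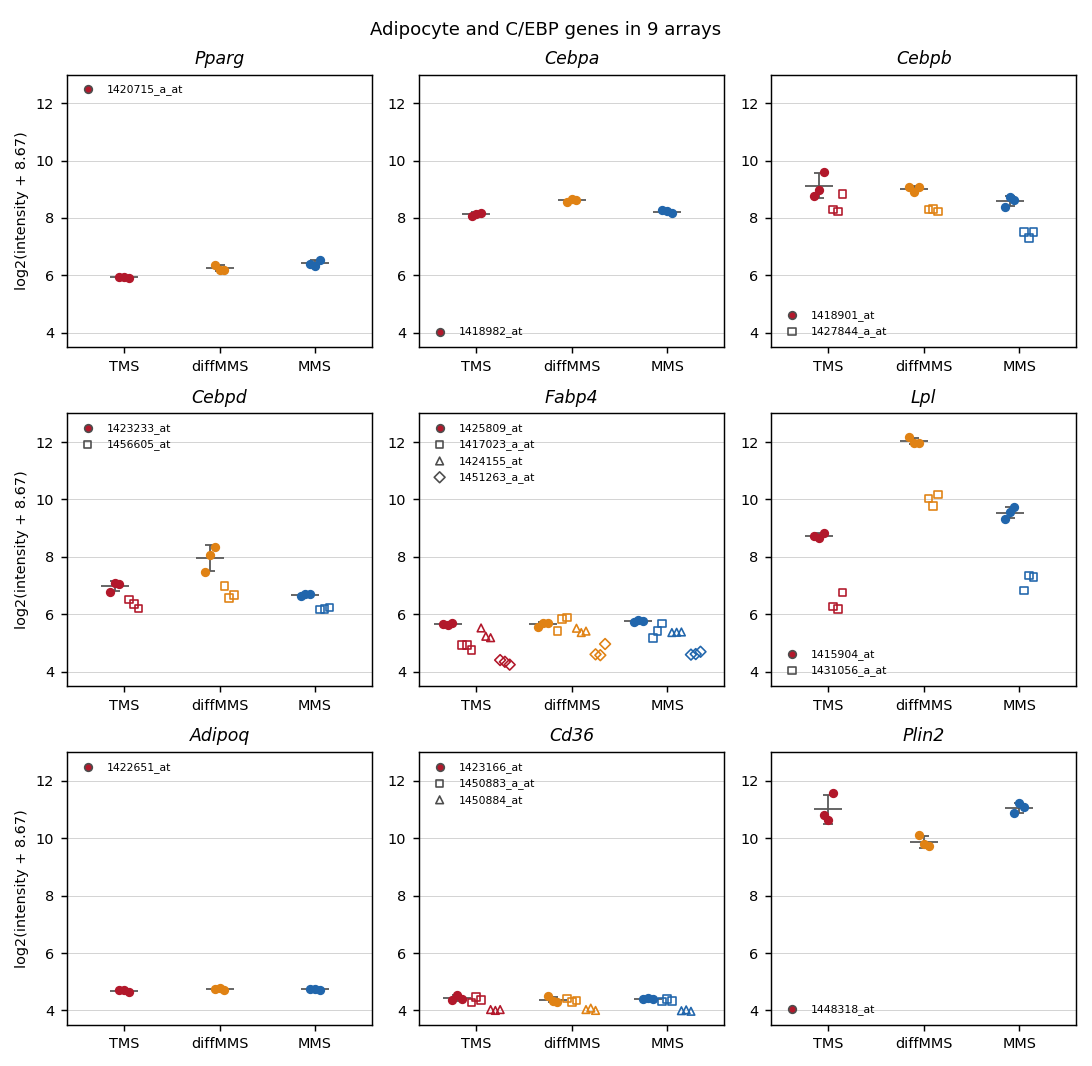
Log2 intensity after quantile normalization (y axis) of each probe set of the 9 genes in the 3 arrays each of TMS, diffMMS and MMS (x axis). Filled circles are the probe set of the highest mean with its group mean and SD, open symbols are other probe sets of the gene, and panels share 1 axis range. The 3 groups are apart for Lpl, diffMMS is lowest for Plin2, and the dim Cd36 and Adipoq points lie level.

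The other genes of the pathway were followed in lists, each gene by its probe set of the highest mean. At this level 6.22% of all 12393 genes were higher and 7.14% lower in TMS against MMS, 12.3% and 12.6% in TMS against diffMMS, and 17.9% and 16.2% in diffMMS against MMS, or 13.4%, 24.9% and 34.0% in either direction. Of the other C/EBP genes, both measured ones were higher in diffMMS than in MMS. Ddit3, the stress-induced C/EBP homologous protein, had a log2 fold change of 1.18 and Cebpg one of 0.28 (adjusted p = 1.65e-04 and 0.0453 from limma). Both were lower in TMS than in diffMMS, at -1.32 and -0.41, and neither was called between TMS and MMS. Among 11 PPAR and RXR receptors and co-regulators, 6 were higher and none was lower in diffMMS against MMS, 3 were lower and none was higher in TMS against diffMMS, and 1 was higher and none lower in TMS against MMS. Nrip1, a co-repressor of nuclear receptors, was highest in diffMMS, at 0.95 over MMS, and its log2 fold changes in TMS were 0.49 against MMS and -0.46 against diffMMS. Rxrb, a partner of the PPARs, was 0.51 higher in diffMMS than in MMS.

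Genes that promote or block fat cell formation moved in both directions. Of 12 other activators, 2 were higher and 4 lower in TMS against MMS, 4 and 2 in TMS against diffMMS, and 4 and 3 in diffMMS against MMS. Egr2, an early factor of adipogenesis and also an immediate early gene, had mean log2 values of 8.76 ± 0.45 in TMS, 5.81 ± 0.08 in diffMMS and 9.92 ± 0.09 in MMS (SD, n = 3 each). It thus differed by -4.11 in diffMMS against MMS (adjusted p = 9.42e-09 from limma). Klf15, which acts late in adipogenesis, ran the other way, at 0.76 in diffMMS over MMS. Srebf1, a factor of lipid synthesis, was higher in TMS than in both, at 1.51 against MMS and 1.72 against diffMMS. Ebf1, a further activator, was lower in TMS than in both, at -0.69 and -1.04. Of 8 inhibitors, 3 were higher and none was lower in TMS against MMS, and the same counts held against diffMMS. Gata3, a factor of luminal cells that inhibits adipogenesis in precursors, led them with 1.66 and 1.58. In diffMMS against MMS none was higher and 1 was lower, Dlk1, the preadipocyte factor, at -2.11 (standard error 0.503, adjusted p = 0.00715 from limma). Dlk1 varied widely among the tumors, at 9.68, 10.47 and 7.67 on the log2 scale in TMS.

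Genes of lipid handling were followed in 4 lists. Of 14 measured genes of fatty acid and lipoprotein uptake, 1 was higher and 1 lower in TMS against MMS, 2 and 1 in TMS against diffMMS, and 2 and 2 in diffMMS against MMS. Acsl4, which activates long-chain fatty acids, was highest in TMS (0.86 over MMS and 1.79 over diffMMS). Angptl4, an inhibitor of lipoprotein lipase and a PPAR target, was slightly higher in diffMMS than in MMS (0.30, adjusted p = 0.0375 from limma). Of 14 genes of triglyceride storage and lipolysis, 4 were higher and none was lower in TMS against MMS, 2 and 5 in TMS against diffMMS, and 4 and 4 in diffMMS against MMS. Mgll, which completes the breakdown of stored fat, was highest in TMS, at 2.34 over diffMMS, and was lower in diffMMS than in MMS, at -1.58. G0s2, an inhibitor of the fat cell lipase Pnpla2, was highest in diffMMS, at 1.25 over MMS. Pnpla2 itself was higher than in MMS in both other cultures, by 0.34 in diffMMS and by 0.60 in TMS. Fatty acid oxidation, with 14 genes, had none higher and 3 lower in TMS against MMS, the same counts against diffMMS, and 4 higher and 1 lower in diffMMS against MMS. Cpt2, of the mitochondrial carnitine shuttle, was higher in diffMMS than in both, with -1.24 in TMS against diffMMS (adjusted p = 1.03e-07 from limma). Of 5 milk fat globule genes 1 was called, Mfge8, at 1.03 in TMS over MMS, 1.60 in TMS over diffMMS and -0.56 in diffMMS against MMS.

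Among 20 acute phase and inflammatory genes, among them known targets of Cebpb and Cebpd in other tissues, 6 were higher and 1 lower in TMS against MMS. The counts were 5 and 5 in TMS against diffMMS, and 7 and 3 in diffMMS against MMS. Saa3, an acute phase apolipoprotein, had a mean log2 value of 6.96 ± 0.20 in TMS, 9.19 ± 0.28 in diffMMS and 6.62 ± 0.08 in MMS (SD, n = 3 each). It was highest in diffMMS, with a log2 fold change of 2.58 in diffMMS over MMS (adjusted p = 6.97e-08 from limma). The acute phase genes Saa1, Saa2, Hp and Orm1 were not called in that comparison. Lbp, the lipopolysaccharide-binding protein, had 1.22 in diffMMS over MMS but also 1.24 in TMS over MMS. Lcn2, which binds siderophores, was higher in TMS than in both others, by 5.42 and 5.84. Ccl2, a chemokine of monocytes, and Ptgs2 were lower in diffMMS than in MMS, at -2.22 and -1.09.

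**Figure D4:**
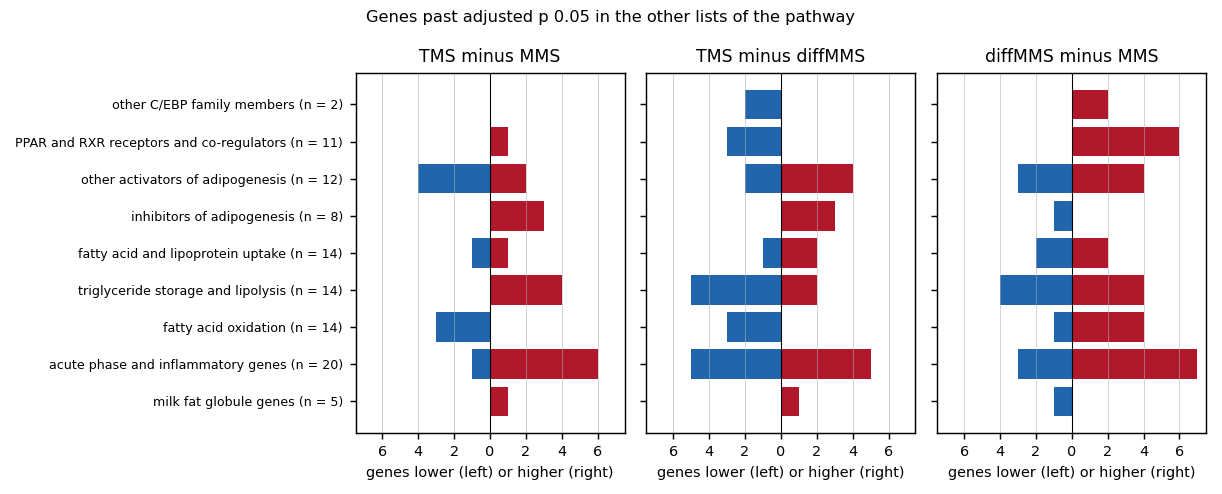
Number of genes called lower (blue bars, to the left) or higher (red bars, to the right) at an adjusted p under 0.05 on the x axis, for 9 lists of related genes with the number measured beside each name on the y axis, in TMS minus MMS, TMS minus diffMMS and diffMMS minus MMS. In diffMMS against MMS, 6 of 11 PPAR and RXR genes were higher and none was lower. Of 20 acute phase genes, 7 were higher and 3 lower there, beside 17.9% and 16.2% of all genes.

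The genes whose pattern over the 9 arrays was most like that of a member were found by Pearson's r, as a description over arrays that fall into 3 groups. For Lpl they were Fam114a1 (r = 0.995), Igf1, the insulin-like growth factor (r = 0.995), and Slc1a5, a glutamine carrier (r = 0.992). Igf1 averaged 6.50 in TMS, 10.09 in diffMMS and 7.39 in MMS on the log2 scale. For Plin2 they were Ccl8, a chemokine (r = 0.987), Cldn1, of tight junctions (r = 0.986), and Prps1l3 (r = 0.984). Those of Cebpd were Ppp1r2 (r = 0.983) and the chemokines Cxcl5 (r = 0.980) and Ccl9 (r = 0.979). Those of Cebpa were Zfp521 (r = 0.991), Mycbp2 (r = 0.989) and Man2a1 (r = 0.988), and Zfp521, a zinc finger factor, averaged 5.62 in TMS, 7.94 in diffMMS and 6.15 in MMS. Cebpb was followed less closely, by Papola (r = 0.957), Rbpms (r = 0.946) and Vps53 (r = 0.937), and Pparg by Rcan2 (r = 0.972), Rbm4b (r = 0.968) and Gna11 (r = 0.956). For the dim probe sets of Fabp4, Adipoq and Cd36 the closest genes were Papolg (r = 0.975), Slc3a1 (r = 0.977) and Lrrfip1 (r = 0.940).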

How the data were processed

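Per the labels, total RNA was hybridized to 9 MOE430A arrays, 3 per group. The authors deposited 1 intensity value per probe set and array, on a linear scale, already summarized and scaled. How this was done is not given in the sources used here, beyond GeneSpring as the analysis software. Of 22690 probe sets, 64 Affymetrix controls were left out of the tests. Array medians were 84.0 to 88.6. Between arrays, quartiles lay up to 0.164 log2 units apart. From the deposited intensities, log2 was therefore taken after adding 8.67 (10% of the median of all values), and all arrays were quantile normalized. Normalization forces equal distributions, and the added value understates changes of dim probe sets. All 9 arrays entered a single limma fit of the group means (limma 3.58.1, R 4.3.3; lmFit and eBayes with an intensity trend, 6 residual degrees of freedom), tests were two-sided, and p values were adjusted by Benjamini-Hochberg over 22626 probe sets. There is no depth on arrays, and their number limits precision. Symbols came from the platform table, with 20380 probe sets carrying 1 symbol, 691 several and 1555 none. Entrez identifiers of 20351 matched RefSeq GRCm38.p6, and no symbol changed.

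The members, lists and alternatives were chosen with earlier results of these data known. All probe sets of members are reported. In the other lists a gene was read by its brightest probe set on average, and genes were named from the 2 largest rises and 2 largest falls past the threshold. For likeness the 3 highest correlations over genes were taken. Fits were tested on simulated data. The alternatives tried were unnormalized values, arrays centred on their median, other pseudocounts (none and 32), leaving out dim probe sets, variance models without the trend or robust, array weights, only the groups compared, a threshold of 0.01 and each array left out. Figures were drawn with matplotlib 3.10.9 in Python 3.11.15.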

Additional observations from a re-analysis of the deposited data

How the results depend on the processing

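No paired analysis was possible because the labels carry no replicate numbers that groups share. No member changed direction where it was called. With dim probe sets left out, 12326 remained, 8 of them of members. A probe set was kept if its highest group mean lay above the median of all log2 values. It could thus pass through only the group where it was high, as 1456605_at of Cebpd did through diffMMS, and counts after this filter are no separate support. Of these 8, 2 were called higher and 2 lower in TMS against MMS, where 2553 of the 12326 were called. Array weights called 5860 probe sets in all in TMS against MMS. Of the 17 probe sets of members, 7 were called there, 2 of them higher. Calls gained with array weights included 1418901_at of Cebpb in TMS against MMS, 1423166_at of Cd36 in TMS against diffMMS and that of Pparg in diffMMS against MMS. At an adjusted p under 0.01, TMS against MMS had 1549 calls in all, 3 of members, 2 of those lower, and TMS against diffMMS and diffMMS against MMS had 3166 and 4456 calls in all.

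Without 1 array, TMS against MMS had 1866 to 4084 calls in all and 3 to 7 of members, with 1 to 2 higher and 2 to 5 lower. The lowest count was that without MMS array 859A, and without 860A it was 1913. Without either, 3 probe sets of members were called, of which 2 were lower. Without 1100A 3 were lower, and without 1099A 2 were higher. TMS against diffMMS had 4311 to 5633 calls, 8 to 10 of members, 1 higher and 7 to 9 lower. Between diffMMS and MMS there were 5212 to 6558 calls, 7 to 8 of members, with 6 to 7 higher and 1 lower. Over single probe sets of members, 708 alternatives kept their side of the threshold, 18 lost a call and 12 gained one. Uncalled values changed sign in some of the 708, as for Plin2 in TMS against MMS (-0.05, and 0.14 without 1100A). Centring on the median moved the split over all probe sets to 1225 higher and 2366 lower in TMS against MMS, beside 1471 and 1760 after quantile normalization, and to 2903 and 4673 in diffMMS against MMS, beside 3643 and 3846. The cause was not tested.

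The limits are 3 arrays per group, an unknown summary method, and dim signals for Pparg, Fabp4, Adipoq and Cd36. Called differences of genes foreign to the tissue, each read by its brightest probe set, were as large as -0.50 (Gcg, diffMMS against MMS). The largest of Pparg was -0.49, in TMS against MMS. That of Fabp4 was -0.85, taken over all of its probe sets (1417023_a_at, TMS against diffMMS). Its brightest probe set, 1425809_at, was not called in any comparison. A value recurred exactly in another array for 36.9% of probe sets.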
